A study of Mus musculus with 4 samples.

Results

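The response of cultured mouse retinas to 4-hydroxytamoxifen (4-OHT) was read as the difference between 1 array of 4-OHT-treated 3D-retinas and 1 array of vehicle-treated 3D-retinas. A gene was counted as measured when its representative probe exceeded background clearly on 1 or both of these 2 arrays (the scanner software's mark "well above background"), which held for 21974 genes of the 22663 so measured on any of the 4 arrays of the series. Of the 21974, 13889 carry a gene symbol, 2851 are long intergenic non-coding RNAs (lincRNAs) of the array design, and 5234 have clone, predicted or probe names only. The 3D-retinas are optic cups derived in floating culture from mouse induced pluripotent stem (iPS) cells that carry an Nrl-GFP reporter, Nrl being the transcription factor that sets rod identity. Cups with bright GFP were picked on differentiation day 23, treated with ethanol (vehicle) or with 5 µM 4-OHT, and collected on day 25, the day on which the labels place the onset of photoreceptor degeneration. Each array held RNA from 24 pooled 3D-retinas, and the other 2 arrays held the same dose of 4-OHT with 400 µM vitamin E or with 200 nM lutein. Selection for bright Nrl-GFP favours cups with many rods, and the number of stem cell clones is not given in the sources used here.

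4-OHT is an active metabolite of tamoxifen, a selective estrogen receptor modulator used against breast cancer, and tamoxifen can cause a retinopathy. It is a cationic amphiphilic molecule, a class known to collect in lysosomes, and tamoxifen also binds an enzyme of cholesterol synthesis. Rods detect light through a cascade in which light switches on the G protein transducin, transducin activates a phosphodiesterase, and the fall in cyclic GMP closes a cation channel. Stressed cells of many kinds shut down general translation through the integrated stress response, in which phosphorylated eIF2 lets the transcription factor ATF4 be made and switch on genes for amino acid supply.

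A single array stood on each side, so the differences carry no replicate check or p-value. All values are sizes between these 2 pooled samples, and 2-fold was the limit used for counting. Signals are given relative to the array's own 75th percentile, so that a scaled signal of 1 is that percentile. Between replicate spots, log2 differences had an SD of 0.146, a measure of spot noise that leaves out differences between cultures. The share of gene spots well above background ran from 51.3% to 54.5% over the arrays, no gene spot was saturated, and all arrays shared a slide. The vehicle array showed the markers of the labelled tissue, with scaled signals of 507 for Nrl and 33.0 for Crx. Pou5f1, a marker of pluripotent cells, was not well above background, and Nanog had a signal of 2.65 by 1 of its 3 probes. Signals of different genes come from different probes and are not compared with each other.

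Of the 21974 genes in the comparison, 1702 (7.75%) were at least 2-fold higher on the 4-OHT array and 698 (3.18%) were at least 2-fold lower. Among the 13889 genes with a symbol these counts were 811 (5.84%) and 476 (3.43%), and these percentages are the background for every list below. The lists were chosen with earlier results of these data known. Counts set beside these percentages therefore describe the lists and do not test them. The median log2 difference of the genes with a symbol was -0.127 and 60.3% of them lay below 0, so that 0 is not their midpoint. Differences of at least 4-fold were found for 192 higher and 38 lower genes with a symbol, and differences of at least 16-fold for 19 higher and 1 lower. When the arrays were scaled on external spike-in RNA, all genes moved by -0.152 on the log2 scale and the split turned, from 63.0% higher among the counted genes with a symbol to 44.6% higher. Quantile normalization gave 56.9%, and on all genes the split was 70.9%, against 53.4% on spike-in RNA.

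The genes of the rod light response were lower with 4-OHT. All 10 measured members of the phototransduction cascade lay below 0 and 9 were at least 2-fold lower, where 3.43% of genes with a symbol were, and the median log2 difference of the list was -2.001. The list's summed scaled signal was 1239 with vehicle and 337.7 with 4-OHT. In a pooled sample, fewer rods and less RNA in each rod cannot be told apart. Gnat1, the alpha subunit of rod transducin, had a scaled signal of 48.0 with vehicle and 1.18 with 4-OHT, which is 40.8-fold lower. It was the only gene with a symbol and both arrays above background that was more than 16-fold lower, and its signals on the vitamin E and lutein arrays, 6.22 and 2.58, lay between. On the mm9 build the probe for Gnat1 sits at positions 107577023 to 107577082 of chromosome 9.

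Slc24a1, the exchanger that clears calcium from the rod outer segment, went from 0.694 to 0.0625 and was 11.1-fold lower, close to the floor of detection. The other partners of the cascade had smaller differences. The phosphodiesterase subunits differed by unequal amounts: the inhibitory subunit Pde6g was 4.95-fold lower and the catalytic subunit Pde6a 2.43-fold, while the other catalytic subunit, Pde6b, had a log2 difference of -0.90. The channel subunits Cnga1 and Cngb1 were 4.85-fold and 2.96-fold lower. The Cngb1 probe used is placed by the files on chromosome 5, so its size is uncertain. The gene's other probes, on chromosome 8, had log2 differences of -1.38 and -0.76. The chromosome 5 probe, at 319 with vehicle and 108 with 4-OHT, is part of the list's summed signal. The transducin gamma subunit Gngt1 was 3.30-fold lower and the beta subunit Gnb1, which many other cells use, 2.78-fold lower.

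The genes that shut the light response off and set its calcium feedback were lower as well. All 12 lay below 0, 8 were at least 2-fold lower, and the median log2 difference was -1.40. Gucy2f, a guanylate cyclase that restores cyclic GMP, was 7.36-fold lower (scaled signal 0.637 with vehicle and 0.0866 with 4-OHT). The calcium sensor recoverin (Rcvrn) went from a scaled signal of 176 to one of 40.7, a 4.32-fold difference, and the cyclase activator Guca1b was 3.86-fold lower. Phosducin (Pdc), which binds transducin subunits, was 2.86-fold lower. The smallest differences were those of Grk1, a kinase that ends the light response, with a log2 difference of -0.45, the disc protein Rom1 with -0.67 and rod arrestin (Sag) with -0.90. For Rgs9 and its anchor Rgs9bp, which speed transducin's return to rest, the brightest probes were 2.58-fold and 2.88-fold lower, and dimmer probes of the same genes lay up to 0.55 and at 0.12 above 0.

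**Figure D1:**
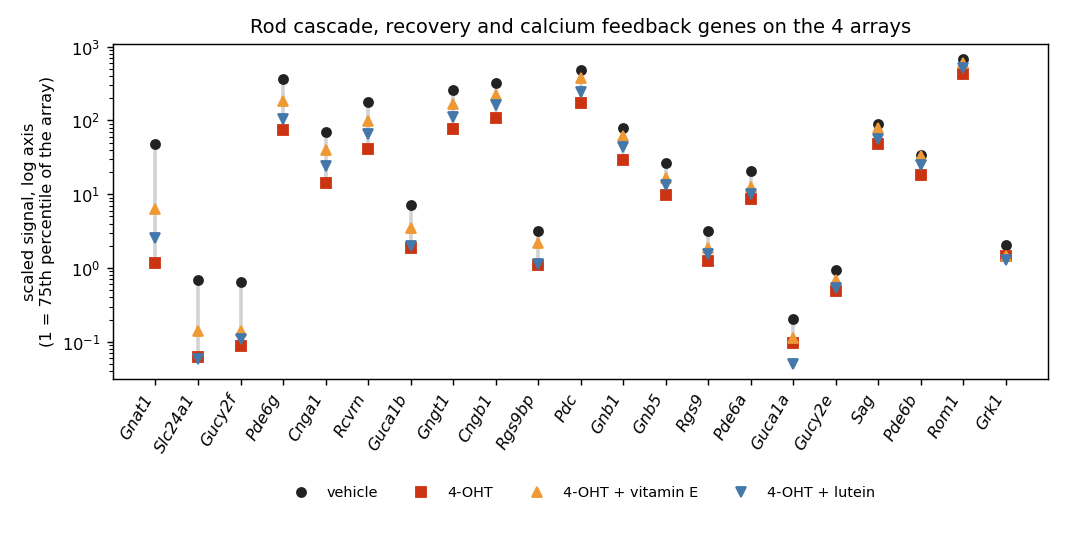
Scaled signal (log axis, 1 is the array's 75th percentile) of the rod cascade, recovery and calcium feedback genes reported here on the 4 arrays, ordered by the log2 difference between 4-OHT and vehicle; the grey line joins vehicle and 4-OHT. The square of 4-OHT lies below the circle of vehicle for every gene shown, by most for Gnat1 at 1.18 against 48.0.

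The upstream sequences of some of these genes hold the core motif of CRX, the homeodomain factor shared by rods and cones, and they are shown because these members were lower together. The letters TAATCC were searched on both strands of RefSeq promoters (250 bases before to 50 after the start, GRCm38.p6), and 7.06% of the 32851 promoters, or 8.14% of genes, hold them. Of the measured cascade genes 6 have a promoter entry and 3 hold the motif (Gngt1, Cnga1 and Cngb1), and of the recovery genes 9 have one and 5 hold it, 3 at least 2-fold lower and 2 short of that (Sag and Gucy2e). Capitals mark the motif or its reverse complement. The windows lie at chr5:72642943-72643002 (minus strand) for Cnga1, chr8:95306611-95306670 (minus) for Cngb1, chr6:3993937-3993996 (plus) for Gngt1, chrX:142196988-142197047 (minus) for Gucy2f and chr1:87803566-87803625 (plus) for Sag.
Cnga1: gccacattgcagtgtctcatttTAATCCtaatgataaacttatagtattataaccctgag
Cngb1: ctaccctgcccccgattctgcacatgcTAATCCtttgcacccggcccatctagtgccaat
Gngt1: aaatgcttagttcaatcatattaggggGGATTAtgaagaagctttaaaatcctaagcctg
Gucy2f: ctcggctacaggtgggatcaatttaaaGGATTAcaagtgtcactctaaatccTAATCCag
Sag: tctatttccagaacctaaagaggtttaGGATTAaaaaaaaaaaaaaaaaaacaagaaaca
A match is a description of the letters and not a bound site. The core letters of the NRL site, TGCTGA, which 21.7% of genes hold, was present in 1 of the 6 cascade promoters and in 3 of the 9 recovery promoters.

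Photoreceptor transcription factors were mostly short of 2-fold. Of 14 measured photoreceptor factors 2 lay 2-fold or more below vehicle and 0 as far above it, and the median log2 difference was -0.69. Esrrb, an orphan nuclear receptor that rods need, was 9.19-fold lower (scaled signal 12.4 with vehicle, 1.35 with 4-OHT), and the corepressor Samd7 was 2.36-fold lower. Nrl had scaled signals of 507 and 302 and Crx of 33.0 and 18.3, log2 differences of -0.75 and -0.85. Otx2, which specifies photoreceptors, lay at 0.39 and the differentiation factor Neurod1 at 0.11.

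Structural genes of the outer segment had a median of -0.88. Of 15 measured, 5 were at least 2-fold lower and 1 was counted as higher. The actin-bundling protein Fscn2 was 3.65-fold lower, the axoneme protein Rp1 2.83-fold and the disc rim protein Prph2, from a scaled signal of 464 to one of 199, 2.34-fold. Prcd and Cdhr1, 2 further disc proteins, were 2.26-fold and 2.09-fold lower.

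At the photoreceptor ribbon synapse, which releases glutamate in the dark, 5 of 20 measured genes lay 2-fold or more below vehicle and 0 as far above it, and the median was -0.44. The complexin Cplx4, which holds vesicles ready, went from a scaled signal of 0.880 to 0.244 and was 3.60-fold lower. The calcium channel subunit Cacnb2 was 3.52-fold lower, the calcium sensor Cabp4 3.08-fold and the vesicular glutamate transporter Slc17a7 2.21-fold. The presynaptic scaffold Bsn lay at the same level on both arrays to 2 decimals (-0.00). Genes of the connecting cilium and ciliary transport differed by a median of -0.25, and 3 of 39 lay 2-fold or more below vehicle (Fam161a at 2.42-fold, and the Bardet-Biedl proteins Bbs9 and Bbs7 at 2.26-fold and 2.07-fold) and 1 higher, Ush1c, by at least 2.51-fold. Presynaptic vesicle genes of neurons in general had a median of -0.43, with Slc17a7 as the 1 of 25 past 2-fold. Among photoreceptor channels the probe named for the inward rectifier Kcnj14 was 5.23-fold lower; the files place the probes of this name on chromosome 1, which is in doubt for that gene, so the value is uncertain.

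Cone genes went both ways. Among the 16 measured, 4 lay 2-fold or more above vehicle and 1 as far below it, and their median was 0.14, or -0.01 when spike-in RNA set the scale. Kcne2, a potassium channel subunit, went from a scaled signal of 0.228 to 2.94 and was 12.9-fold higher. For cone arrestin (Arr3) the brightest probe was 3.97-fold higher and another lay at 0.53 on the log2 scale, and the short-wave opsin Opn1sw, not well above background with vehicle, was at least 2.93-fold higher. Ccdc136 was 2.44-fold higher. The cone transducin Gnat2 was 2.46-fold lower, and Kcnv2 and Cngb3 had log2 differences of -0.93 and -0.76.

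Markers of the other retinal cells stayed closer to the background. Medians were -0.12 for 19 genes of Muller glia, -0.26 for 16 of bipolar cells, -0.10 for 18 of amacrine and horizontal cells, -0.26 for 18 of ganglion cells and 0.12 for 23 of progenitors and Notch signalling, beside -0.127 for all genes with a symbol. Among Muller genes 2 were at least 2-fold higher: clusterin (Clu), a secreted chaperone, at 4.72-fold (scaled signal 26.2 and 124) and the transcription factor Sox9 at 2.39-fold. Among ganglion cell genes the developmental factor Sox11 was 3.46-fold higher and gamma-synuclein (Sncg) 2.64-fold lower. Progenitor genes at least 2-fold higher were Id1 (2.38-fold), Atoh7 (2.20-fold) and Notch1 (2.10-fold). In the amacrine list Onecut2 was 3.19-fold higher and the GABA enzyme Gad1 2.02-fold lower. Dct, an enzyme of melanin synthesis, was 5.37-fold higher as the 1 of 8 pigment epithelium genes past 2-fold.

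**Figure D2:**
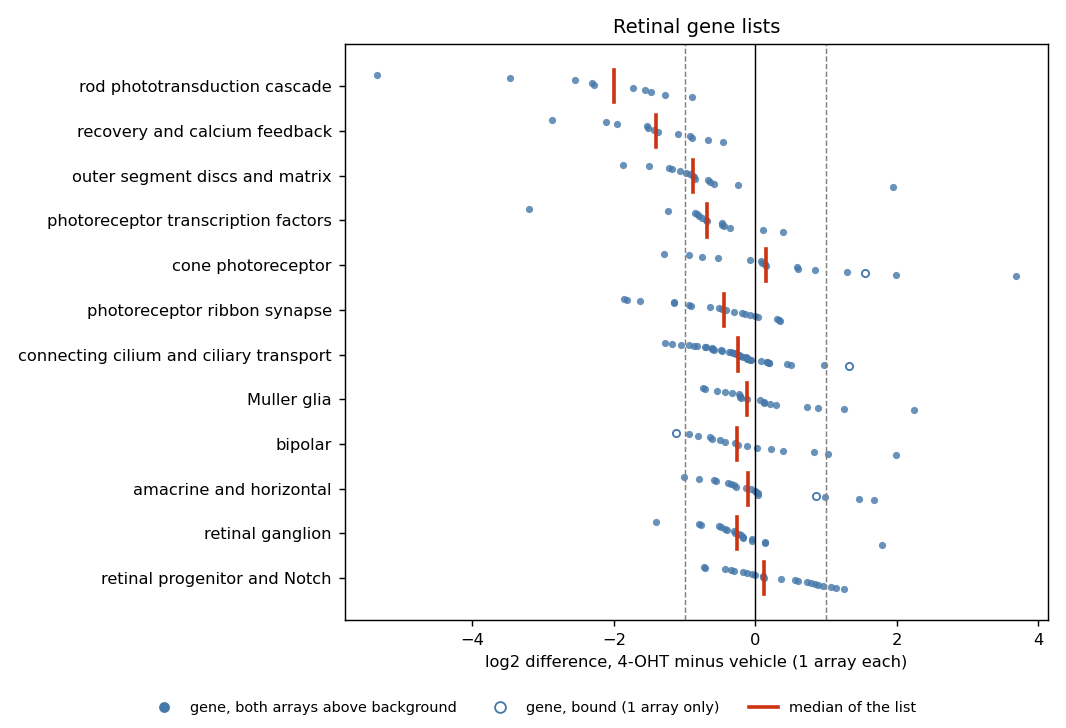
Log2 difference between the 4-OHT and vehicle arrays for each measured gene of 12 retinal lists, with the median of each list in red, bounds as open circles and dashed lines at 2-fold. All points of the first 2 lists lie left of 0, while the list of cone genes spans from -1.30 to 3.69.

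Markers of immune cells were sparse. Of 15 listed genes of microglia and leukocytes 7 were measured, and Cx3cr1, Aif1, P2ry12, Ptprc, Tyrobp, Trem2 and Spi1 were not well above background on either array. The summed scaled signal of the list was 14.7 with vehicle and 33.3 with 4-OHT. Most of each sum was Itgam, with signals of 10.02 and 28.15 by its brighter probe, which holds a run of repeated AC. Nearly all of the rise in the sum came from that probe, and its size is uncertain. The other probe of Itgam lay at -0.15. Cd68, a lysosomal protein of phagocytes, went from 0.229 to 1.19, 5.21-fold higher, while Tmem119, a marker of resident microglia, was not well above background with 4-OHT and at least 4.15-fold lower. What part these cells have in the other results was not tested. Of 16 vascular, pericyte and fibroblast markers 7 were measured, with summed signals of 21.9 and 24.3, and Cdh5, Tek, Rgs5 and Lum were not well above background on either array. Most of each sum was Kdr, with signals of 21.1 and 23.3 by its brighter probe, so the sums say little about the other members. Of the 7 measured, 1 was at least 2-fold higher and 0 were as far below vehicle.

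Most factors and regulators of the integrated stress response were higher with 4-OHT. Of 26 measured 16 were at least 2-fold higher, where 5.84% of genes with a symbol were, and 0 were lower, with a median log2 difference of 1.43. Atf3, a stress-induced transcription factor, went from a scaled signal of 1.37 to 28.4 and was 20.8-fold higher. Nupr1, a small chromatin-associated stress protein, went from 0.330 to 6.58 (19.9-fold), and the secreted cytokine Gdf15 from 1.83 to 28.3 (15.5-fold). On the lutein array these 3 genes had signals of 20.3, 3.67 and 20.3, and on the vitamin E array of 2.40, 0.832 and 2.50.

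The central factor and most of the kinases of the pathway were short of 2-fold. Atf4 had scaled signals of 297 and 452, a log2 difference of 0.61. Of the eIF2 kinases, Eif2ak3, the sensor in the endoplasmic reticulum, was 2.18-fold higher, Eif2ak4, the sensor of uncharged tRNA, lay at 0.08, Eif2ak1, the heme-regulated kinase, at -0.47 and Eif2ak2, the sensor of double-stranded RNA, at -0.42. Partners that pair with ATF4 were higher, namely Cebpb at 8.14-fold, Cebpg at 3.60-fold and Ddit3, also known as CHOP, at 2.91-fold. Feedback genes were higher too. The phosphatase subunit Ppp1r15a, which reverses eIF2 phosphorylation, was 6.79-fold higher by a probe that holds a run of repeated ATTT, and the pseudokinase Trib3 was 4.17-fold higher. Chac1, which degrades glutathione, was 7.30-fold higher, the translation repressor Eif4ebp1 6.73-fold, Atf5 5.21-fold and the leucine sensor Sesn2 2.49-fold.

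**Figure D3:**
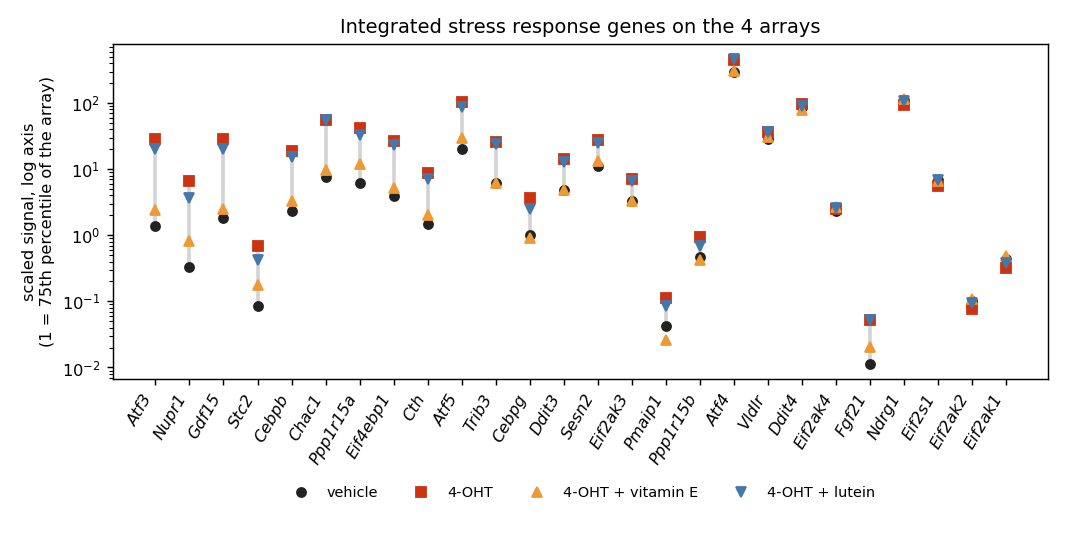
Scaled signal (log axis) of the measured integrated stress response genes on the 4 arrays, ordered by the log2 difference between 4-OHT and vehicle, with a grey line from vehicle to 4-OHT. Atf3 has the largest distance, from 1.37 to 28.4, while Eif2ak4 at 0.08 has almost none, and the 4 genes at the right end lie below 0, down to -0.47 for Eif2ak1.

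Some of the genes that make and import amino acids, a group with known ATF4 targets, were higher as well. Of 24 genes of amino acid synthesis and serine one-carbon metabolism 11 lay 2-fold or more above vehicle and 0 as far below it, and of 21 amino acid transporters 8 were higher and 0 lower, with medians of 0.46 and 0.27. On the serine route Phgdh was 5.55-fold higher and Psat1 3.20-fold, while the last step of serine synthesis, Psph, lay at 0.25. Downstream of serine Shmt2 was higher by 3.30-fold and the mitochondrial folate enzymes Mthfd2 and Aldh1l2 5.71-fold and 5.54-fold. Phgdh had 3 probes above background on both arrays, between 2.40 and 2.49 on the log2 scale. They are placed on chromosomes 3 (2.40), 17 (2.47, the probe used) and 8 (2.49), so the size is uncertain. Asparagine synthetase (Asns) went from a scaled signal of 32.2 to 113 (3.52-fold), and Cth, which makes cysteine, from 1.49 to 8.79 (5.89-fold). The cytosolic forms Shmt1 and Mthfd1 lay at -0.11 and -0.60.

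Among the transporters, the arginine carriers Slc7a3 and Slc7a1 were 11.7-fold and 6.21-fold higher. The cystine carrier Slc7a11, not well above background with vehicle, was at least 5.00-fold higher, and Slc3a2, the heavy chain it shares with Slc7a5, was 2.92-fold higher. Slc7a5 itself was 4.65-fold higher and the glutamine carriers Slc1a5 and Slc38a2 3.18-fold and 2.97-fold. Slc1a1, Slc6a9 and Slc36a4 lay within 0.07 of 0.

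The enzymes that charge tRNAs are given by compartment, with no test of the difference. Of 20 cytosolic synthetases 5 lay 2-fold or more above vehicle and 0 as far below it, and the median was 0.70; 0 of 16 mitochondrial synthetases were past 2-fold in either direction and their median was -0.19. Cars and Tars, for cysteine and threonine, were each 2.36-fold higher, Mars1 2.10-fold, Eprs 2.09-fold and Sars 2.05-fold. Farsb and Vars lay at 0.04 and 0.04, and 6 cytosolic members lay below 0, Qars lowest at -0.61. The largest mitochondrial difference was that of Lars2, at -0.65.

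The response element bound by C/EBP-ATF dimers has the core TGATGNAA, and windows that hold it are shown because these genes were higher together. On both strands 3.97% of all promoters, or 4.51% of genes, hold the letters. Of the 26 stress response genes 21 have a promoter entry and 6 hold the core, 4 of the 13 at least 2-fold higher and 2 of the 8 short of that. Of the synthesis genes 3 of 18 hold it, of the transporters 3 of 15, and of the cytosolic synthetases 5 of 13, 4 of these 5 being short of 2-fold. Capitals mark the core or its reverse complement. The windows lie at chr1:191183410-191183469 (minus strand) for Atf3, chr7:126625547-126625606 (minus) for Nupr1, chr2:119351023-119351082 (plus) for Chac1, chr6:7693210-7693269 (minus) for Asns, chr3:50443646-50443705 (minus) for Slc7a11 and chr19:27216794-27216853 (plus) for the lipoprotein receptor Vldlr, which holds the core and was short of 2-fold.
Atf3: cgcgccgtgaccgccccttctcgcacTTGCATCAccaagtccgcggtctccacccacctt
Nupr1: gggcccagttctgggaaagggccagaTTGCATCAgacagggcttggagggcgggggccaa
Chac1: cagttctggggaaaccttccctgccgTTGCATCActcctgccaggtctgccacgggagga
Asns: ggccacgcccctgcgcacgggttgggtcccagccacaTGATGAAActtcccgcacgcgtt
Slc7a11: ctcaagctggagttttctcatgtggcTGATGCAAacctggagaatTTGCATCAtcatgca
Vldlr: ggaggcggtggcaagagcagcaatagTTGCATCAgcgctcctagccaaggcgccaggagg
Slc7a11 holds the core on both strands within this window. In Trib3 the core begins after the annotated start and is not shown.

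Other protein-quality pathways were less broad. Of 33 chaperones and ATF6 or XBP1 targets of the endoplasmic reticulum 3 lay 2-fold or more above vehicle (Herpud1 at 2.81-fold, Ero1a at 2.30-fold and the sensor kinase Ern1 at 2.04-fold) and 0 as far below it, and the median was -0.08. The main chaperone Hspa5 lay at 0.63 and the disulfide isomerase Pdia6 at -0.01. Of 26 heat shock genes 4 were higher, with a median of 0.17. The inducible Hspa1a went from a scaled signal of 1.32 to 8.04 (6.08-fold), the small heat shock protein Hspb1 from 1.11 to 5.93 (5.34-fold), and the co-chaperone Bag3 was 3.45-fold higher, while Dnajb1 lay at 0.01.

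Immediate early genes, which answer within minutes to growth factors, activity or stress, were higher with 4-OHT in many members. Of 17 AP-1 and small Maf factors 10 lay 2-fold or more above vehicle and 0 as far below it (median 1.78), and of 33 EGR, NR4A and activity genes 20 were higher and 1 lower (median 1.46). Npas4, a factor induced by calcium entry in neurons, went from a scaled signal of 0.255 to 16.2, and at 63.4-fold was the highest of all genes with a symbol above background on both arrays. Fos went from 0.261 to 8.52 (32.6-fold); its probe had 10 spots, with means ± SD over spots of 0.263 ± 0.0331 and 8.53 ± 0.413. Maff was 30.8-fold higher, Junb 13.8-fold, Fosb 11.3-fold and Jun, from 44.9 to 182, 4.06-fold. Bach1, a repressor that pairs with small Maf proteins, lay at -0.10, and the 4 probes of Atf2 lay between -0.35 and 0.54.

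Egr1, a zinc finger factor, was 22.5-fold higher, and Egr2 and Egr4, not well above background with vehicle, were at least 26.2-fold and 21.8-fold higher. The Egr1 signals were 2.17 with vehicle, 49.0 with 4-OHT, 21.8 with vitamin E and 48.5 with lutein. Csrnp1 and Gadd45b had log2 differences of 4.22 and 4.17, Arc, a synaptic plasticity protein, 6.87-fold, and Nr4a1 4.50-fold. The pentraxin Nptx2 was the 1 member at least 2-fold lower (2.07-fold), and Btg2 and Ier3 lay at 0.11 and 0.12.

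Feedback inhibitors of MAP kinases were partly higher. Of 22 measured 9 lay 2-fold or more above vehicle and 1 as far below it (median 0.82), led by the phosphatases Dusp4 at 4.44-fold and Dusp1 at 4.38-fold, while Dusp14 was 2.06-fold lower and Spry1 and Spred1 lay at -0.04 and -0.06. Among 13 Kruppel-like factors Klf4 was 7.50-fold higher, Klf5 at least 4.81-fold and Klf6 2.87-fold, with a median of 0.72. Of 20 circadian genes, 19 measured, Bhlhe40 and Ciart were 6.21-fold and 5.65-fold higher and Arntl lay at 0.05.

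**Figure D4:**
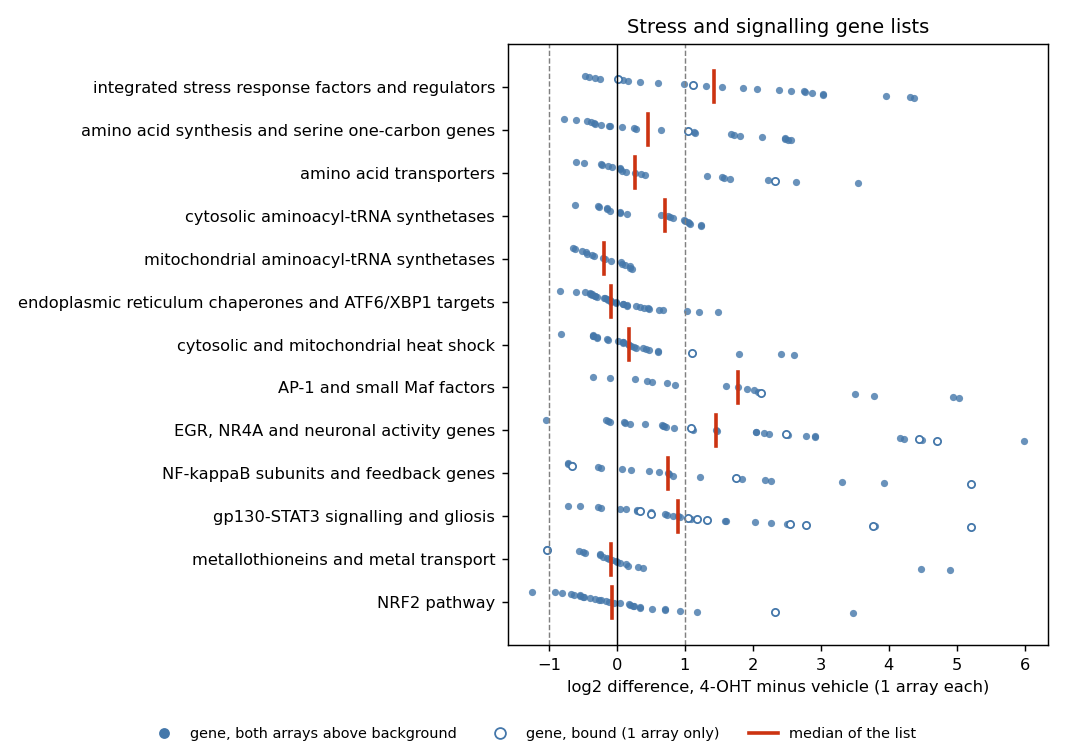
Log2 difference between the 4-OHT and vehicle arrays for each measured gene of 13 stress and signalling lists, with the median in red, bounds as open circles and dashed lines at 2-fold. The lists of the integrated stress response and AP-1 have medians of 1.43 and 1.78. The NRF2 and metallothionein lists have medians near 0 with 2 genes each far to the right. Another NRF2 gene, Cat, lies just past 2-fold at 1.18 by a repeat-bearing probe.

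Secreted factors and their signalling were higher in many members, often from below background. Of 35 neurotrophic and growth factors 13 lay 2-fold or more above vehicle and 2 as far below it (median 0.48). Areg, an EGF receptor ligand, and Inhba, an activin subunit, were at least 7.34-fold and 7.20-fold higher, and Vegfa, the vascular growth factor, went from a scaled signal of 4.44 to 20.9 (4.71-fold). Edn2 and Lif, which photoreceptors and Muller glia use as injury signals, were 5.63-fold and at least 2.07-fold higher, and Fgf2 at least 2.51-fold. Angptl4 was 3.94-fold lower and was lower on the vitamin E and lutein arrays too, with signals of 0.231 and 0.234 against 1.38 with vehicle.

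In the gp130-STAT3 route, through which LIF acts, members at several levels were higher, but not the receptor chains of LIF itself. Of 31 measured 14 lay 2-fold or more above vehicle and 0 as far below it, and the median was 0.89. The receptor chains Osmr and Il6ra, not well above background with vehicle, were at least 6.84-fold and 5.84-fold higher. The chains that bind LIF, Lifr and Il6st (gp130), had log2 differences of -0.55 and 0.29, and the kinases Jak1 and Jak2 of -0.23 and 0.13. The other probes of Lifr lay at -0.50 and 0.40. Stat3 was 4.08-fold higher, with 10 spots at 6.74 ± 0.208 and 27.5 ± 1.01 (mean ± SD over spots), and its second detected probe had a log2 difference of 2.81. Its feedback target Socs3 went from 0.510 to 7.10 (13.9-fold). Gfap, the filament protein of gliosis, went from 0.0536, not well above background, to 0.0681, at least 1.27-fold higher, and Nes was 3.05-fold higher.

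Some NF-kappaB genes were higher. Of 21 measured 8 lay 2-fold or more above vehicle and 0 as far below it, and the median was 0.76. Bcl3, a nuclear cofactor, went from 0.0108, not well above background, to 1.90 and was at least 36.9-fold higher, the largest bound among genes with a symbol. The subunits Relb and Nfkb2 were 15.2-fold and 4.52-fold higher and the inhibitor Nfkbia 2.34-fold. Of 23 listed chemokines 13 were measured, 4 of them at least 2-fold higher and 2 lower, beside 5.84% and 3.43% of genes with a symbol. Their median was 0.19, or -0.17 with detection required on both arrays. The 4 higher ones, Cxcl10, Ccl2, Cxcl1 and Cxcl2, attract leukocytes and were not well above background with vehicle. They were at least 23.1-fold, 17.0-fold, 12.5-fold and 3.24-fold higher, while Cxcl12 and Cxcl14 were 2.50-fold and 2.01-fold lower. Tnf and Il1b were not well above background on either array.

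Interferon response genes were divided. Of 16 measured 6 lay 2-fold or more above vehicle and 0 as far below it, and the median was 0.16. The antigen presentation genes H2-K1, H2-D1 and B2m were 4.07-fold, 3.70-fold and 3.51-fold higher, and the factor Irf1 9.89-fold. Other interferon-induced genes went both ways, with Irf9 2.63-fold and Bst2 2.16-fold higher, Isg15 at 0.19, Oasl2 at -0.88 and Ifit2, not well above background with 4-OHT, at least 1.74-fold lower.

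Among the metallothioneins, which bind zinc and copper, Mt1 and Mt2 were higher and Mt3 lay at -0.11. Mt1 went from a scaled signal of 11.4 to 252 (22.1-fold) and Mt2 from 5.26 to 157 (29.8-fold). On the vitamin E array Mt1 and Mt2 had signals of 19.8 and 7.59, and on the lutein array of 155 and 87.8. They were the 2 of 20 genes of the list at least 2-fold higher, and 2 were lower, the zinc importer Slc39a4 by 2.04-fold and the copper pump Atp7b by at least 2.03-fold. The list's median was -0.09, and the zinc transporters Slc30a10 and Slc39a14 lay at 0.00 and -0.01. The core of the metal response element, TGCNCNC, is common: 53.6% of genes hold it, as do 14 of the 15 members with a promoter entry.

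Few oxidant defence genes were past 2-fold. Of 30 NRF2 pathway genes 3 were counted as higher and 1 as lower, with a median of -0.07. Hmox1, the inducible heme oxygenase, went from 0.990 to 10.9, a log2 difference of 3.47, and its second probe had a log2 difference of 2.53. Slc7a11 is given above. The third, catalase (Cat), had a repeat-bearing probe at 1.18 and another at -0.79. Ephx1, an epoxide hydrolase, was 2.37-fold lower, and its other probe lay at -0.28. The antioxidant core TGACNNNGC is held by 11 of the 24 members with a promoter entry and by 14% of genes, and by 0 of the 3 past 2-fold that have an entry. Of 25 superoxide dismutases, peroxiredoxins and glutathione peroxidases Gpx2 was 4.53-fold higher, while Sod2 and Gpx4, which guards membranes against lipid peroxides, had log2 differences of -0.66 and -0.69. The list's median was -0.28.

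Genes of the iron and lipid peroxidation list had a median of -0.18, with 5 of 28 higher and 1 lower. The 5 were Hmox1, Chac1, Slc7a11, Ptgs2 (at least 3.38-fold) and Slc3a2, and Akr1b8 was 2.27-fold lower by 10 spots at 0.523 ± 0.0422 and 0.230 ± 0.0176 (mean ± SD over spots). The transferrin receptor Tfrc lay at -0.93.

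Sterol genes differed in both directions. Of 21 genes of cholesterol synthesis 17 lay above 0 and 0 were past 2-fold, with a median of 0.38, which ranged from 0.22 to 0.53 over the alternatives. Of 21 genes of SREBP control 2 were past 2-fold, among them the sterol sensor Insig1 at 2.25-fold higher. Of 17 genes of LXR and sterol efflux 2 were lower and 1 higher, with a median of -0.19. The sterol exporter Abca1 was 3.18-fold lower (3.33 to 1.05) and Abcg1 2.39-fold, and Soat1, which stores cholesterol as ester, was 2.06-fold higher. Of 46 lysosomal genes 1 was at least 2-fold higher, the protease Ctsk at 3.31-fold, and 23 lay above 0, with a median of 0.02. Of 40 autophagy genes 1 was higher, Atg9a, with a median of -0.07 and Sqstm1 at 0.93. In a list of genes used as markers of phospholipid storage 2 of 12 were higher, both stress response genes named above (Nupr1 and Asns), and the cholesterol transporter Npc1 lay at -0.06.

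Some cell death genes were higher, beside 5.84% of genes with a symbol. Of 20 BCL-2 family genes 3 lay 2-fold or more above vehicle and 0 as far below it. The killer proteins Bbc3 and Hrk were 4.92-fold and 4.04-fold higher and Pmaip1 at least 2.17-fold, while Bak1 lay at 0.09. Of 28 p53 targets 7 were higher and 0 lower, with a median of 0.10, and among the 7 Sesn2, Gdf15 and Pmaip1 also belong to the stress response list. The cell cycle inhibitor Cdkn1a went from 2.46 to 7.37 (3.00-fold), and Mdm2 and Zmat3 lay at 0.09 and -0.02. Among 28 death receptor and caspase genes 3 were higher and 0 lower, with a list median of -0.16. The receptors Tnfrsf12a and Tnfrsf1a were 15.7-fold and 4.59-fold higher. Proliferation genes stayed within 2-fold: 0 of 24 of S phase and 0 of 25 of mitosis passed it in either direction, with medians of -0.16 and 0.05.

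Nuclear-encoded subunits of the respiratory chain were lower as a body and by small amounts. All 37 measured genes of complex I and all 40 of complexes II to V lay below 0, where 60.3% of genes with a symbol did, and 4 of each list were at least 2-fold lower. Medians were -0.78 and -0.82 and the full ranges -1.32 to -0.46 and -1.08 to -0.35. Ndufa4 went from a scaled signal of 98.7 to 39.7 (2.49-fold lower) and Cox6c from 202 to 95.9 (2.10-fold lower). Uqcrc2, a core protein of complex III, had 9 spots on each array at 40.5 ± 0.524 and 26.7 ± 0.703 (mean ± SD over spots). Mitochondrial ribosomal proteins had a median of -0.45 with 53 of 54 below 0, and proteasome genes one of -0.49 with 34 of 37 below 0. Cytosolic ribosomal proteins had a median of 0.09 with 41 of 55 above 0, which turned to -0.06 on spike-in scaling. In these last 3 lists 0 members were past 2-fold.

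**Figure D5:**
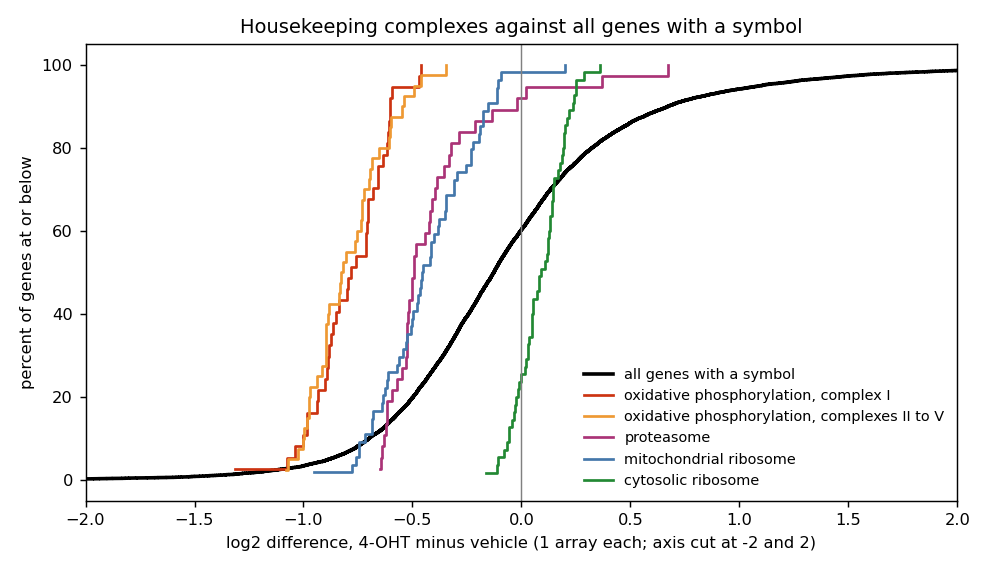
Percent of genes at or below each log2 difference between 4-OHT and vehicle, for all genes with a symbol (black) and for 5 lists of protein complexes. The curves of the respiratory chain lie left of 0 throughout, with medians of -0.78 and -0.82, and the curve of the cytosolic ribosome is narrow around its median of 0.09.

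Metabolic and hypoxia genes included some higher members. Of 20 HIF targets 5 lay 2-fold or more above vehicle and 1 as far below it (median 0.40), with Egln3 at 6.01-fold and P4ha2 at 3.68-fold, while the 2 probes of the subunit Hif1a lay at -0.83 and 0.71. Of 24 glycolysis genes Pfkfb3 and Pdk1 were 2.59-fold and 2.16-fold higher and Gapdh lay at -0.02.

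Genes tied to the drug itself differed in both directions. Esr1 was not well above background on any array. Esr2 went from a scaled signal of 2.71 to 6.72 and was 2.48-fold higher, with signals of 2.15 and 2.94 on the vitamin E and lutein arrays, and Gper1 lay at 0.15. Of 20 estrogen-related genes 3 were higher and 2 lower, beside 5.84% and 3.43% of genes with a symbol. Their median was -0.01, and the classical target Greb1 lay at 0.02. Esrrb, given above with the photoreceptor factors, had the lowest value of this list. Of 8 aryl hydrocarbon receptor genes 1 was higher and 1 lower; Cyp1a1 was not well above background and Cyp1b1 lay at 0.25. Of 11 xenobiotic metabolism genes 2 were higher, among them Nr1i3 at 3.48-fold, and 1 was lower, Ephx1, given above. Their median was 0.16, or -0.11 with no filter on dim probes. In retinoic acid metabolism Aldh1a3, a synthesis enzyme, went from 0.0266, not well above background, to 1.60 and was at least 31.0-fold higher, while the retinal reductase Dhrs3 was 2.97-fold lower.

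Matrix and cytoskeletal genes were higher in part. Of 25 proteases and inhibitors 6 lay 2-fold or more above vehicle and 0 as far below it (median 0.28). Timp1 and Plaur, the urokinase receptor, were at least 13.6-fold and 8.84-fold higher and Adamts1 6.96-fold. Of 34 SRF and YAP targets 7 were higher and 0 lower (median 0.19), among them Ccn1 at least 5.63-fold and Anxa2 2.97-fold. Of 22 axon injury genes 5 lay 2-fold or more above vehicle and 2 as far below it (median -0.15). Ecel1 was 2.64-fold higher and Gap43 lay at -0.52.

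Genes outside these lists also reached the extremes. Slc23a3, an orphan transporter of the ascorbate carrier family, went from 0.0648 to 1.82, a log2 difference of 4.81, and Scube1, a secreted protein, from 0.213 to 3.39 (16.0-fold). On the lower side Cltrn (collectrin) was 11.3-fold lower, the sulfotransferase Gal3st4 5.97-fold and Gsg1 6.11-fold, and Vwa3a, Pcsk6, a proprotein convertase, and Ackr4, a chemokine scavenger, were well above background with vehicle only and at least 13.1-fold, 11.5-fold and 10.4-fold lower.

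Intergenic non-coding RNAs are described against the 5.84% higher and 3.43% lower among genes with a symbol, with no test of the difference. Among the 2851 lincRNAs 10.3% lay 2-fold or more above vehicle and 2.95% as far below it, and the median was 0.08. The higher share was not particular to lincRNAs. Among the 5234 genes with clone, predicted or probe names only, 11.4% were higher and 2.64% lower, with a median of 0.035. The highest was a region on chromosome 8 (124355710 to 124401160, mm9, reverse strand), whose scaled signal went from 0.0983 to 4.70, 47.9-fold higher, by the brightest of its 3 probes above background on both arrays, the lowest of which lay at -0.25. A shorter region inside it, read by 1 probe, was 35.3-fold higher. Of 15 nuclear RNAs and hosts of small RNAs 8 lay 2-fold or more above vehicle and 0 as far below it (median 1.13). Malat1 and Neat1, RNAs of nuclear speckles and paraspeckles, were 4.75-fold and 4.56-fold higher, Snhg12 3.41-fold and Lncpint at least 6.03-fold. Among imprinted RNAs Meg3 was 7.41-fold higher with its 3 probes between 2.89 and 3.39, Airn 7.24-fold by its brightest probe and at least 1.14 on the log2 scale by the others, and Kcnq1ot1 5.41-fold. Mirg had a log2 difference of 3.17 by one probe and lay at 0.20 by another. LincRNA probes made up 35.5% of the dimmest and 3.6% of the brightest of 5 equal groups of probes above background on both arrays, and the part of signal level in these counts was not tested.

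Probes with simple repeats were a group of their own. A probe was counted when 15 or more bases were covered by a repeated unit of up to 4 bases. All 11 probes with repeated AG above background on both arrays were at least 2-fold higher on the 4-OHT array (median 2.05), and 38 of 39 with repeated AC lay above 0 (median 1.504), whereas all 11 with the complementary CT and 78 of 79 with the complementary GT lay below 0 (medians -0.85 and -0.70). Of the 14 listed genes whose probe holds such a run 7 were past 2-fold, among them Cabp5, Itgam, Cat, Chat and Ppp1r15a. The first 3 have another probe above background on both arrays, and it lay below 0 in each: -1.47, -0.15 and -0.79. The values of these genes are uncertain, and what makes such probes differ was not tested. Without repeat-bearing probes 780 genes with a symbol were higher and 474 lower.

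Where a gene has several probes, most gave one direction. Of the 44 listed genes past 2-fold that have 2 or more probes above background on both arrays, 38 had every such probe on the same side of 0 and 33 had every one past 2-fold. Cabp5, Cat, Itgam, Rgs9 and Rgs9bp were among the exceptions. Over 2163 transcripts with probes at least 500 bases apart, the downstream probe lay lower than the upstream one (median log2 difference -0.133), and its part in the differences was not tested.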

How the data were processed

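RNA of 4 pooled samples was labelled with Cy3 and hybridised to a 1-colour mouse array, and the report uses the vehicle and 4-OHT arrays, with the other 2 beside them. The submitters' processing notes name Agilent Feature Extraction 10.7.3.1 as the scanner software. The intensity used was deposited with its background already subtracted and detrended by the authors' software and was not normalized between arrays, per the file headers, and probe places are on mm9. The authors' deposited value table holds, by its values, the signal divided by a constant per array, and served as an alternative. Sequences and current symbols are from RefSeq (GRCm38.p6): 28752 of 55681 probes matched by accession.

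The lutein values were saved to 3 significant digits. Control spots and outlier spots (137 to 164 per array) were left out. Intensities as deposited were log2-transformed, and the 75th percentile of each array was subtracted. Spots of a probe were averaged, and each gene was read from its brightest probe, by the mean of the 4 arrays. On a dim side the smallest well-above-background signal of that array, or the probe's own if higher, took its place, and the difference was written as "at least". There is 1 array per group, so no test was made, and precision is limited by that number. Members and the 69 lists (1591 of 1604 symbols on the array, lists overlapping) were chosen with earlier results of these data known. Any list member could be named, those past 2-fold first by size and then up to 3 nearest 0, with the 15 largest differences each way, the 8 largest bounds and 25 genes such as Crx, Atf3 and Esr1; not every gene so allowed is printed, and some genes that enter the counts and medians are not reported here. Older symbols were read as current ones; the cone list's Clca3 was so read as Clca1. Alternatives were other scalings, normexp (offset 50), the mean of a gene's probes, other filters, other limits and, chosen after seeing the data, leaving out repeat-bearing probes. Steps were tested on simulated data. Tools were Python 3.11.15, NumPy 2.4.6, pandas 2.3.3, matplotlib 3.10.9, R 4.3.3 and limma 3.58.1.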

Additional observations from a re-analysis of the deposited data

Results flagged for a closer look

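One control feature outside the gene measurements carried more signal on the 4-OHT array than on the vehicle array, and its cause was not tested. The control probe ERCC-00113, in 28 spots, had a median intensity of 55.6 with 4-OHT and was well above background in 100% of its spots there, against 16.9 and 7.1% with vehicle, 13.3 and 3.6% with vitamin E and 27.2 and 21.4% with lutein.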

How the results depend on the processing

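No paired analysis was possible because 1 array stood for each condition, and no array could be left out. Counts of all genes at least 2-fold higher and lower were 1702 and 698. Beyond 1.5 times those they were 901 and 350 with normexp background, 3134 and 1484 with no filter on dim probes, 3325 and 2984 at a limit of 1.5-fold, and 382 and 78 at 4-fold, and 1176 lower on spike-in scaling (1346 higher). The other settings (scaling on the median of detected probes, quantile normalization, the authors' value table, averaging the probes of a gene, detection required on each array, no repeat-bearing probes) gave 1265 to 1710 higher and 527 to 919 lower. Of 267 listed genes past 2-fold, those still past it in the same direction were 207 with normexp, 234 on spike-in scaling and 238 after quantile normalization. Without repeat-bearing probes 4 reversed, among them Cabp5 to -1.473, Cat to -0.791 and Itgam to -0.151. Of 69 list medians, 10 took the opposite sign on spike-in scaling, the cone and cytosolic ribosome lists among them, and 5 after quantile normalization. The cause of the changes with spike-in scaling, quantile normalization and normexp was not tested.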

Other observations

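Repeat-bearing probes also differed in pattern across the arrays. Probes with repeated AG had a median log2 difference from vehicle of 2.05 with 4-OHT, -0.40 with vitamin E and 0.40 with lutein, and probes with repeated CT had -0.85, 0.48 and -0.08. Probes with repeated AC had 1.504, 0.20 and 0.52, and those with repeated GT -0.70, -0.19 and -0.44. Repeated AAG was counted in 50 probes, 49 of them above 0 with 4-OHT (median 0.91), and repeated AGG in 21 probes with a median of 0.07. These comparisons share the vehicle array. Probes without such a repeat, 26838 of them, had a median of -0.08. Of the genes with a symbol at least 2-fold higher, 37 of 811 rest on a repeat-bearing probe, and of those lower 5 of 476.

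Probe base content and signal level moved with the differences by less. Over 5 equal groups of probes, from least GC to most, the median log2 difference went from -0.17 to -0.01, and from the dimmest to the brightest group from 0.04 to -0.17. The share at least 2-fold higher was largest in the second dimmest group, at 10.8%, and 2.19% in the brightest. Their part in the counts was not tested.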
